A study of Mus musculus with 15 samples.

Results

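Myelin, the insulating sheath of axons, was followed in mouse posterior eyecups through 8 listed genes of myelin and Schwann cells: Mbp, Mag, Mog, Cnp, Mal, Pmp22, Prx and Sox10. They were found by symbol and are 8 of the 55421 genes in the count files, and all 8 were among the 18979 genes that passed the filters and were tested. RNA was sequenced from eyecups of 15 mice aged 2.5 months, with 1 library per mouse: 4 WT, 6 FUN025/+ and 5 FUN025/FUN025. FUN025 is a mutation of Tmem135, carried on 1 allele by FUN025/+ mice and on both by FUN025/FUN025 mice. The mutant mice were on the C57BL/6J background, C57BL/6J WT mice served as controls, both sexes were used, no mouse received a treatment according to the labels, and the eyecups of each mouse were pooled after the neural retina had been taken off. Neither sex nor batch is labelled per mouse.

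An eyecup of this kind holds pigment epithelium, choroid and sclera, together with the ciliary nerves that run through them and whatever remains of the optic nerve head. Oligodendrocytes make the myelin of the optic nerve and Schwann cells that of the ciliary nerves, and both build it from cholesterol, galactolipids and very long fatty acids. Some myelin proteins, such as MBP, MAG and CNP, are shared by both sheaths, MOG is made by oligodendrocytes, and periaxin (Prx) and much PMP22 by Schwann cells. In mice the optic nerve is myelinated only behind the eye. The comparisons ask how the myelin genes stand in the 3 genotypes, and how the genes of lipid synthesis stand beside them.

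The counts of a library summed to 18094977 to 20029919 in WT, from 10903183 to 13456349 in FUN025/+ libraries and from 11053535 to 15038383 in FUN025/FUN025 libraries, so that every WT library was deeper than every mutant library. At these depths 3 counts, the smallest level taken as seen, equal 0.15 to 0.28 CPM (read counts scaled to the depth of the library by edgeR), a floor that covers counting error only. Levels are given in CPM, and fold changes with adjusted p-values come from edgeR's quasi-likelihood test on all genes, with an adjusted p under 0.05 as threshold. Of the pigment epithelium markers, Rpe65 had 1486 to 2616 CPM and Ttr 4964 to 7898 CPM over the 15 libraries, while Best1 had no more than 2.73 CPM. Tmem135, the mutated gene, had 59.8 to 66.2 CPM in WT, 66.1 to 86.3 CPM in FUN025/+ and 82.5 to 94.0 CPM in FUN025/FUN025 libraries. In whole tissue, fewer cells of a type and less RNA per cell cannot be told apart.

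The 8 genes lie on 6 chromosomes of GRCm38, with Prx and Mag both on chromosome 7 and Pmp22 and Cnp both on chromosome 11. Mag (chr7:30899176-30914873, minus strand), Mog (chr17:37010743-37023398, minus strand), Cnp (chr11:100574904-100591729, plus strand) and Mal (chr2:127633226-127656695, minus strand) are the genes whose promoters are shown, because the first 3 rose and fell together across libraries and Mal did not follow them. Each stretch is the RefSeq promoter on GRCm38.p6, up to 250 bases before the start and ending where the GENCODE gene begins, written 5′ to 3′ on the strand of the gene. Capitals mark ACAAAG or its reverse complement, 1 of the 2 forms searched of the letters that SOX proteins such as SOX10 prefer. The other form, ACAATG, was searched on both strands too and was absent from these stretches.
Mag, chr7:30914874-30915113, minus strand: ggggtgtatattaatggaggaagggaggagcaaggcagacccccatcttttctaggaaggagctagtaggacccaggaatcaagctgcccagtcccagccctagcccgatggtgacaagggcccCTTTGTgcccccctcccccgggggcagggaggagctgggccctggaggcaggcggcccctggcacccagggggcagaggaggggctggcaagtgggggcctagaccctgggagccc
Mog, chr17:37023399-37023648, minus strand: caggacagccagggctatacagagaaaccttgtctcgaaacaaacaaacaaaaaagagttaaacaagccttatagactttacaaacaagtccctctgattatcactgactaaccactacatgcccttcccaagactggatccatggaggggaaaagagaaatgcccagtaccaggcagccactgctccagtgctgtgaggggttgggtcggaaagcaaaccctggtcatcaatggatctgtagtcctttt
Cnp, chr11:100574689-100574903, plus strand: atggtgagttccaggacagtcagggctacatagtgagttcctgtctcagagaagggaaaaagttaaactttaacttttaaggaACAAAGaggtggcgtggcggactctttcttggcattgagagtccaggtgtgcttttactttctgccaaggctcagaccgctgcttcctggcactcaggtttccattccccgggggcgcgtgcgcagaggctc
Mal, chr2:127656696-127656945, minus strand: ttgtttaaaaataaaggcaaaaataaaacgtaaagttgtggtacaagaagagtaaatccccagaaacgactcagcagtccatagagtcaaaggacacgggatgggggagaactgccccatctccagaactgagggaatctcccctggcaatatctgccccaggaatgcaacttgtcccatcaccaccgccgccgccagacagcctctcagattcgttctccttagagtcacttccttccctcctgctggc

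ACAAAG occurs once in the Mag stretch and once in the Cnp stretch, and in neither orientation in those of Mog, Mal, Pmp22 and Prx. Among 32851 promoter windows of 250 bases, 16.5% hold ACAAAG and 10.7% hold ACAATG, so that 2 of 6 genes is a description of these letters and no more. Of the 8 genes, 6 had a RefSeq promoter entry; Mbp and Sox10 did not.

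The 8 genes spanned a wide range of levels. Per kilobase of exon in WT eyecups, Pmp22 stood highest at 107 ± 3.41 CPM (SD, n = 4), followed by Sox10 at 57.5 ± 5.0 and Mal at 32.9 ± 18.4 CPM per kilobase. Mal overlapped Sox10 because 1 WT library reached 60.2 CPM per kilobase of Mal, within the Sox10 range of 51.3 to 63.5. Cnp, at 15.2 ± 0.662 CPM per kilobase, lay above Mbp, at 11.2 ± 2.18, with no overlap between their WT libraries. Prx had 3.23 ± 0.401, Mag 0.826 ± 0.247 and Mog 0.364 ± 0.219 CPM per kilobase, and of these neighbours Mag and Mog overlapped. Mog was thus the scarcest of the 8, with 3 to 59 counts per library.

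**Figure D1:**
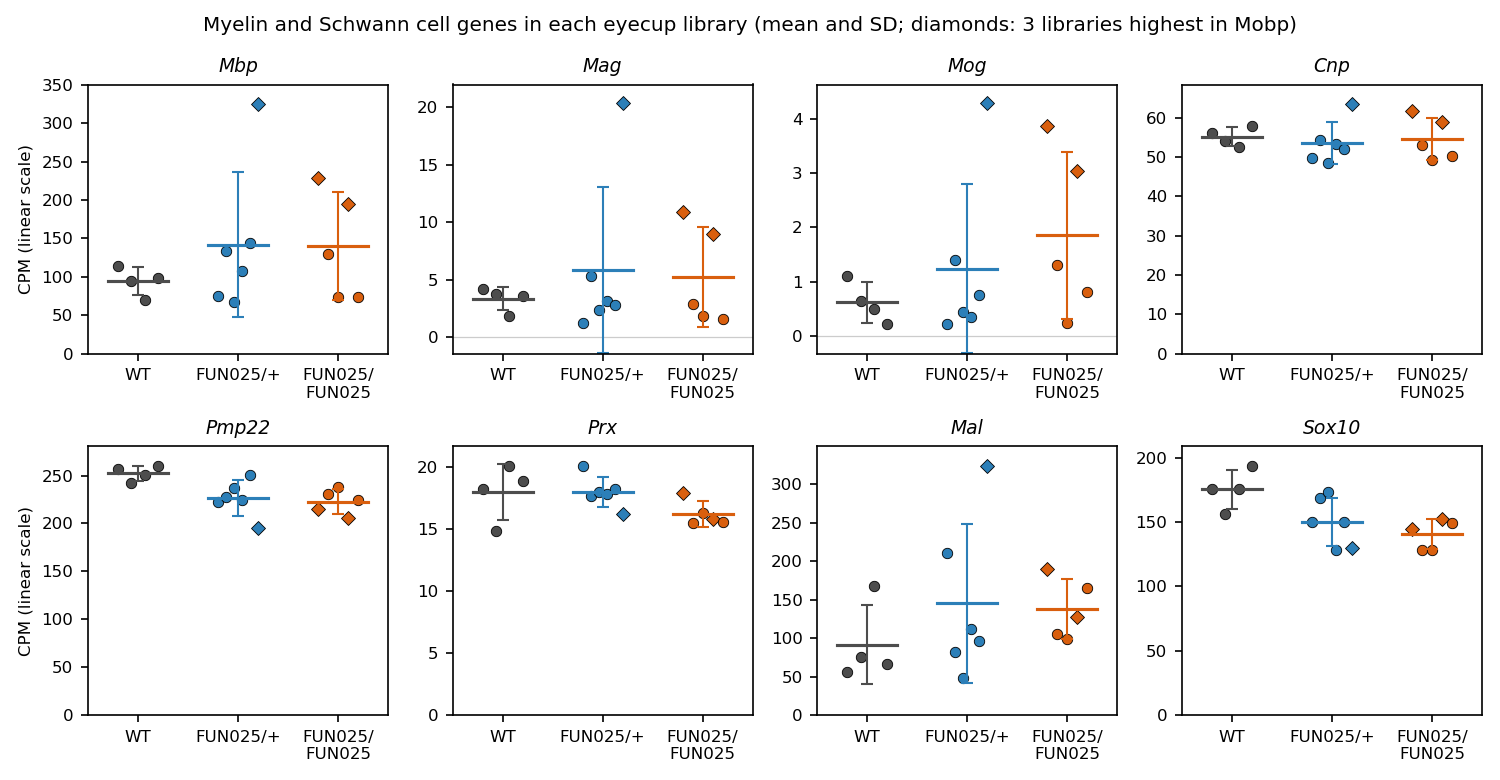
Level of each of the 8 genes in every eyecup library. Each panel has CPM on a linear axis against genotype, points are libraries, horizontal lines are means and bars are SD (n = 4 WT, 6 FUN025/+ and 5 FUN025/FUN025), and diamonds mark FUN025/+ replicate 6 and FUN025/FUN025 replicates 1 and 4, the libraries highest in Mobp. The diamonds lie at the top for Mbp, Mag, Mog and Cnp and not for Pmp22, Prx or Sox10.

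None of the 8 genes passed the threshold between FUN025/+ and WT eyecups by edgeR's test, against 13.7% of all genes tested, and 2 of the 8 had an unadjusted p under 0.05, against 28.8% of all genes. Between FUN025/FUN025 and WT eyecups 1 of the 8 passed, Sox10, which was lower, against 14.0% of all genes called and 7.02% called as lower. Between FUN025/FUN025 and FUN025/+ eyecups none passed, against 0.522% of all genes, and none had an unadjusted p under 0.05, against 6.23% of all genes. With DESeq2 the counts were 0, 2 and 0, and with limma 0, 1 and 0. The groups did not overlap for 0 of the 8 genes between FUN025/+ and WT (10.9% of all genes), for Sox10 and Pmp22 between FUN025/FUN025 and WT (14.8% of all genes) and for none between the mutant genotypes (1.12% of all genes). The median log2 fold change of the 8 was 0.29 in FUN025/+ and 0.28 in FUN025/FUN025 eyecups against WT, where the median over all genes was near 0 (−0.0023 and −0.0071), with 5 and 4 of the 8 above 0. These medians rest on 3 mutant libraries described below: without FUN025/+ replicate 6 and FUN025/FUN025 replicates 1 and 4, a choice made after the values were seen, they were −0.035 and −0.11. These libraries were the highest in Mbp, Mag, Mog and Cnp and no WT library was left out, so lower medians follow from the choice itself. Both mutant genotypes were compared with the same 4 WT mice.

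**Figure D2:**
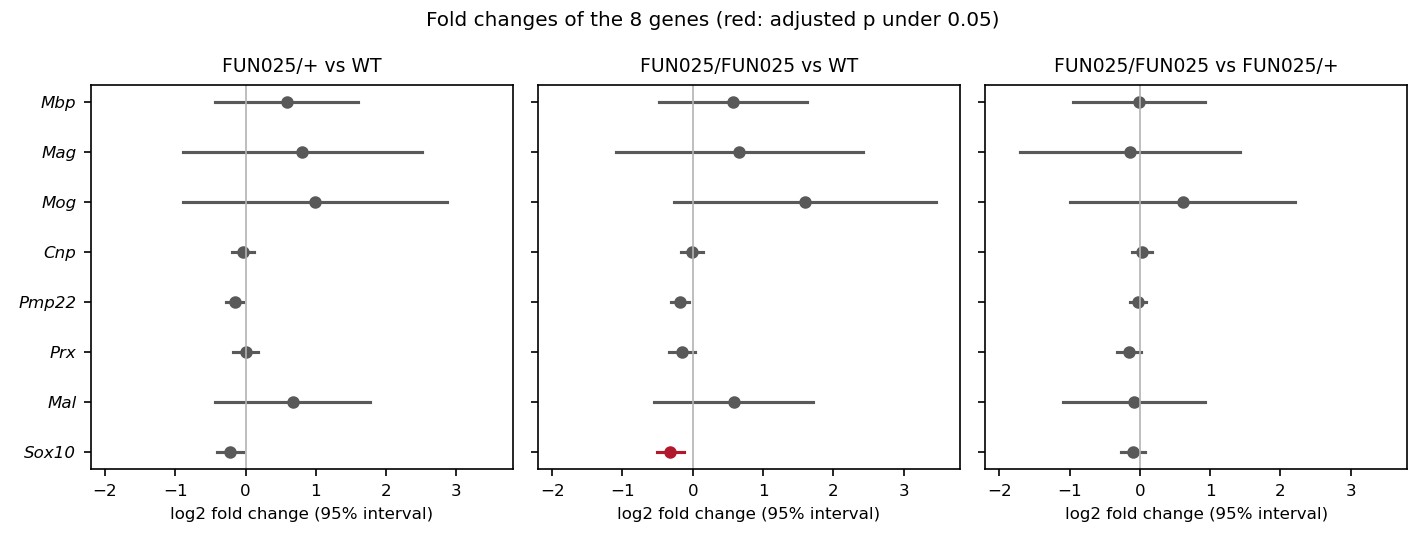
Log2 fold change of each gene in the 3 comparisons. Points are the fitted log2 fold changes, lines are their 95% intervals, which are not adjusted for the number of genes, and red marks an adjusted p under 0.05. Only Sox10 in FUN025/FUN025 eyecups relative to WT is red, and Mbp, Mag, Mog and Mal have the widest intervals.

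Mbp encodes myelin basic protein, which presses the membrane layers of the sheath together on their inner side. WT libraries had 115, 94.6, 69.9 and 98.6 CPM of Mbp, and FUN025/+ libraries ran from 67.7 CPM through a median of 120.0 to 325 CPM in replicate 6. FUN025/FUN025 libraries had 228, 130.3, 73.1, 195 and 73.9 CPM. Thus 3 mutant libraries stood above all others, FUN025/+ replicate 6 and FUN025/FUN025 replicates 1 and 4, while the lowest libraries of all 3 genotypes lay close together. The log2 fold change of Mbp was 0.59 ± 0.467 (SE, adjusted p = 0.438) in FUN025/+ and 0.57 ± 0.482 (SE, adjusted p = 0.476) in FUN025/FUN025 eyecups, and the groups overlapped.

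Mag encodes a glycoprotein of the innermost myelin layer that faces the axon. Its WT values were 4.17, 3.77, 1.90 and 3.61 CPM. FUN025/+ libraries ran from 1.25 CPM through a median of 2.98 to 20.4 CPM in replicate 6, and FUN025/FUN025 libraries had 10.9, 2.93, 1.85, 8.96 and 1.63 CPM. The same 3 libraries stood out, and the other mutant libraries ran from 1.25 to 5.33 CPM, around the WT values. The log2 fold changes of 0.81 ± 0.783 (SE, adjusted p = 0.532) and 0.66 ± 0.808 (SE, adjusted p = 0.633) relative to WT did not pass the threshold.

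Mog encodes a glycoprotein on the outer surface of oligodendrocyte myelin. WT libraries had 1.11, 0.646, 0.50 and 0.222 CPM of Mog. FUN025/+ libraries ran from 0.220 CPM, which is at the 3-count floor, through a median of 0.601 to 4.29 CPM, and FUN025/FUN025 libraries had 3.88, 1.31, 0.241, 3.04 and 0.817 CPM. FUN025/+ replicate 6 and FUN025/FUN025 replicates 1 and 4 were again the 3 highest. The fold change was the largest of the 8 genes, 0.99 ± 0.869 and 1.60 ± 0.863 on the log2 scale (SE) relative to WT, with adjusted p = 0.484 and 0.244, and the groups overlapped. The interval in FUN025/FUN025 eyecups was wide, from −0.26 to 3.46. Counts of Mog were low, 20 at most in a WT library, and its spread within genotypes was larger than that of 99.6% of genes tested. The part of each in the interval was not tested.

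Cnp encodes a phosphodiesterase of the channels that keep myelin open to the cell body, and is made by other cells at lower levels. WT libraries had 56.1, 54.0, 52.5 and 57.9 CPM of Cnp, FUN025/+ libraries 48.4 to 63.4 CPM with a median of 52.7, and FUN025/FUN025 libraries 61.7, 53.1, 49.2, 58.9 and 50.2 CPM. The order of libraries was like that of Mbp, with the same 3 on top, but the highest was only 1.31 times the lowest. Its log2 fold changes were −0.042 ± 0.0739 and −0.012 ± 0.0768 (SE) relative to WT (adjusted p = 0.748 and 0.937), with intervals of −0.20 to 0.11 and −0.17 to 0.15. Of the exon bases of Cnp, 154 are shared with Dnajc7 on the other strand, and the strand setting of the counting is not stated, so reads there cannot be assigned to either gene.

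Mobp, a protein gene of oligodendrocyte myelin that is not among the 8, gave a measure of that sheath outside the list. WT libraries had 15.6, 12.2, 1.35 and 9.84 CPM of Mobp, FUN025/+ libraries 0.808 to 75.3 CPM with replicate 6 on top, and FUN025/FUN025 libraries 54.7, 23.9, 4.42, 42.5 and 3.63 CPM. The 3 libraries highest in Mobp were those highest in Mbp, Mag, Mog and Cnp, in the same order. Across the 15 libraries, which share depth and library composition, the log2 deviations of Mobp from the genotype means had r = 0.923 with Mbp, 0.859 with Mag, 0.762 with Mog and 0.853 with Cnp. In the 12 other libraries these were 0.952, 0.866, 0.562 and 0.85. With Prx, Pmp22 and Sox10 they were −0.39, −0.427 and −0.281 over all 15, and −0.49, 0.209 and −0.297 over the 12. Mobp itself did not pass the threshold in either comparison with WT (log2 fold changes 1.15 ± 1.11 and 1.43 ± 1.14, SE, adjusted p = 0.529 and 0.45).

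Without those 3 libraries, a choice made after the values were seen, the log2 fold change in FUN025/FUN025 eyecups relative to WT was −0.019 for Mbp, −0.63 for Mag and 0.36 for Mog (adjusted p = 0.978, 0.364 and 0.768). In FUN025/+ eyecups, where only replicate 6 left the group, the values were 0.16 for Mbp, −0.17 for Mag and 0.02 for Mog. As the libraries left out were the highest of their groups for these genes, lower values follow from the choice itself. With Mobp as a covariate instead, Mbp had 0.35 and 0.097, Mag 0.24 and −0.19, and Mog 0.34 and 0.66 in FUN025/+ and FUN025/FUN025 eyecups against WT, and none passed the threshold. With the mean of the oligodendrocyte list as covariate Mbp passed in FUN025/+ eyecups, at 0.37 (adjusted p = 0.0377), and not in FUN025/FUN025 eyecups, at 0.24 (adjusted p = 0.174), and Mag and Mog passed in neither.

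**Figure D3:**
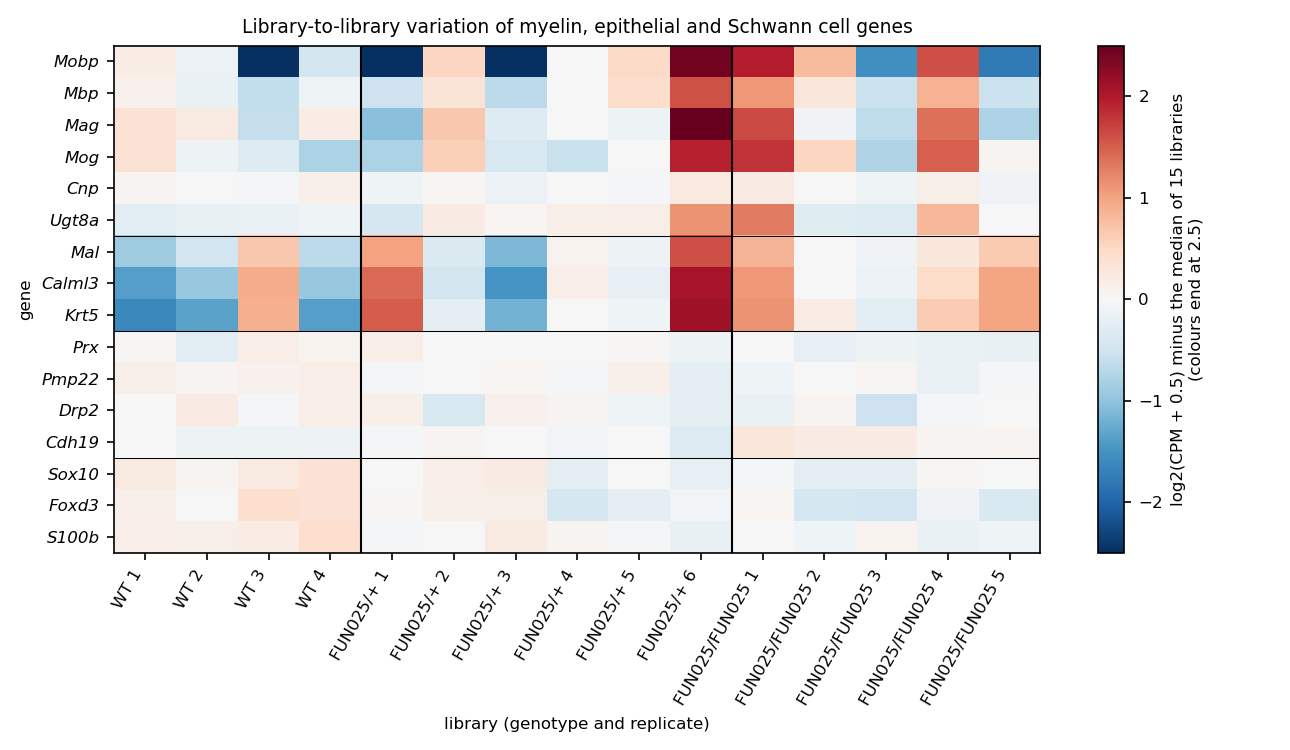
Deviation of 16 genes from their median in each of the 15 libraries. Rows are genes, columns are libraries by genotype and replicate, and colour gives the log2 of CPM plus a small constant minus the median over libraries, red for higher and blue for lower. Mobp, Mbp, Mag, Mog, Cnp and Ugt8a share their highest 3 libraries, Mal follows Calml3 and Krt5, and Prx, Pmp22, Sox10 and Foxd3 do not share those 3 libraries as their highest.

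The other genes of oligodendrocytes did not all behave as Mobp did. Of the 15 genes on that list 13 were tested and 0 passed the threshold in any comparison, against 13.7%, 14.0% and 0.522% of all genes. In each comparison 1 had an unadjusted p under 0.05 (28.8%, 28.6% and 6.23% of all genes), and 0 passed with DESeq2 or limma. Opalin had 0 to 9 counts and Olig2 0 to 10 counts per library, so that both were near the floor and untested. Ermn, a cytoskeletal gene of oligodendrocytes, had 236 to 325 CPM and Myrf, a transcription factor of myelination, had 320 to 478 CPM in every genotype, far above Mobp, and Ermn had r = −0.0721 with Mobp over the 15 libraries. In FUN025/+ replicates 1 and 3, with Mobp under 1 CPM, Ermn had 236 and 292 CPM and Myrf 393 and 458 CPM. Which cells made Ermn and Myrf was not tested. Klk6, a protease gene, was 6.02 CPM in FUN025/+ replicate 6 and no more than 3.94 CPM elsewhere. Olig1 and Hapln2, with 0 to 42 and 0 to 24 counts per library, had the same 3 highest libraries as Mobp, in the same order.

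Ranked by likeness to Mog among 17586 genes with a mean of at least 1 CPM, Mag (r = 0.889) and Mbp (r = 0.886) came first, and Prr18 (r = 0.854) and Klk6 (r = 0.849) were among the nearest 5. Prr18 had 4.78, 3.28 and 3.70 CPM in the 3 libraries highest in Mobp and 0.514 to 1.98 CPM in the other 12.

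Pmp22 encodes a small tetraspan protein of compact peripheral myelin and is also made by fibroblasts and epithelia. WT libraries had 257, 242, 250.1 and 260.0 CPM of Pmp22. FUN025/+ libraries ran from 195 CPM in replicate 6 through a median of 226 to 251 CPM, and FUN025/FUN025 libraries had 215, 231, 238, 205 and 225 CPM. All 5 FUN025/FUN025 libraries lay below the lowest WT library, and 5 of the 6 FUN025/+ libraries did. The log2 fold changes of −0.16 ± 0.0590 (SE, adjusted p = 0.0843) in FUN025/+ and −0.18 ± 0.0614 (SE, adjusted p = 0.0584) in FUN025/FUN025 eyecups missed the threshold, and with library size alone as scaling, with DESeq2 or with only the 2 genotypes compared the second passed (adjusted p = 0.0402, 0.0393 and 0.0454). Pmp22 was lowest in the library where Mbp was highest, and the deviations of Pmp22 and Mbp had r = −0.613 over 15 libraries. With Mal and the keratin gene Krt5, described below, those of Pmp22 had r = −0.661 and −0.633. Without the 3 libraries highest in Mobp the value in FUN025/FUN025 eyecups was −0.12 (adjusted p = 0.208).

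Prx encodes periaxin, a scaffold protein of myelinating Schwann cells that ties the sheath to their outer membrane. WT libraries had 18.2, 14.9, 20.1 and 18.9 CPM, FUN025/+ libraries 16.2 to 20.1 CPM with a median of 17.9, and FUN025/FUN025 libraries 17.9, 15.5, 16.3, 15.8 and 15.5 CPM. The 3 genotypes overlapped, and the highest library had 1.35 times the lowest. The log2 fold change was 0.00 ± 0.0837 (SE, adjusted p = 1) in FUN025/+ eyecups, with an interval of −0.18 to 0.18, and −0.15 ± 0.0876 (SE, adjusted p = 0.273) in FUN025/FUN025 eyecups, with an interval of −0.33 to 0.03. Of its exon bases 300 are shared with an antisense gene, Gm15541. The genes most like Prx across libraries were Lmna (r = 0.875), Kcnj8 (r = 0.835), the noncoding 2210039B01Rik (r = 0.828), Stat6 (r = 0.812) and Cavin1 (r = 0.807), and no other of the 8 genes was among its nearest 5.

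Of the 19 further genes on the list of peripheral myelin and Schwann cells, 18 were tested. None passed the threshold in FUN025/+ eyecups relative to WT by edgeR's test, against 13.7% of all genes. There 2 had an unadjusted p under 0.05 (28.8% of all genes), and 1 passed with DESeq2 and 1 with limma. In FUN025/FUN025 eyecups 4 of the 18 passed, 2 higher and 2 lower, against 14.0% of all genes, with a median log2 fold change of −0.115. An unadjusted p under 0.05 was held by 6 of the 18 (28.6% of all genes). Cdh19, a cadherin of Schwann cell precursors and non-myelinating Schwann cells, rose by 0.27 ± 0.0709 on the log2 scale (SE, adjusted p = 0.0179), from 40.4 to 44.4 CPM in WT to 46.6 to 53.8 CPM in FUN025/FUN025 libraries. Scn7a, a sodium channel gene expressed by non-myelinating Schwann cells, rose by 0.24 ± 0.0742 (SE, adjusted p = 0.0409). S100b, a calcium-binding protein of Schwann cells and astrocytes, fell by 0.29 ± 0.0767 on the log2 scale (SE, adjusted p = 0.0187), from 246 to 300.0 CPM in WT to 199 to 238 CPM. Foxd3, a transcription factor of the neural crest, fell by 0.53 ± 0.162 (SE, adjusted p = 0.0347), with overlapping groups. Without WT replicate 4 none of the 18 passed, and without WT replicate 3 or FUN025/FUN025 replicate 2 or 5, without the 3 libraries highest in Mobp, or with Mobp as covariate, 2 did.

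Of these 18 genes 7 had a log2 fold change above 0 in FUN025/FUN025 eyecups and 11 below. Of the genes tied to myelination named here, Egr2, Drp2, Ncmap, Gldn, Cldn19 and Sh3tc2 were lower and Pllp and Pou3f1 higher. None of these passed the threshold in any comparison by edgeR's test. Egr2, the transcription factor that turns on peripheral myelination, had 1.29 to 2.20 CPM in WT, 0.742 to 1.98 CPM in FUN025/+ and 0.817 to 1.38 CPM in FUN025/FUN025 libraries, a log2 fold change of −0.66 ± 0.291 (SE, adjusted p = 0.14) between FUN025/FUN025 and WT. Drp2, a partner of periaxin, had 8.69 to 10.4 CPM in WT and 6.11 to 9.39 CPM in FUN025/FUN025 libraries (log2 fold change −0.22 ± 0.136, SE, adjusted p = 0.311). Ncmap had −0.36 ± 0.216 (SE, adjusted p = 0.29) and Gldn, which helps to form nodes, −0.14 ± 0.146 (SE, adjusted p = 0.582) on the same log2 scale. Cldn19, a claudin of Schwann cells and pigment epithelium with 26.0 CPM on average in WT, had −0.33 ± 0.247 (SE, adjusted p = 0.407), and Sh3tc2, with 16.2 CPM, −0.25 ± 0.124 (SE, adjusted p = 0.20). Dhh, also on the list, had −0.45 ± 0.183 (SE, adjusted p = 0.109). On the other side, Pllp, a proteolipid of myelin and epithelia, had 0.36 ± 0.299 (SE, adjusted p = 0.469) and Pou3f1, a transcription factor of the promyelinating stage, 0.12 ± 0.346 (SE, adjusted p = 0.857). The libraries highest in Pllp were those highest in Mal, in the same order, and Pou3f1 had 0.905 CPM on average in WT. Erbb3, the neuregulin receptor of Schwann cells, had 0.26 ± 0.175 (SE, adjusted p = 0.357), and Ngfr, a receptor of immature and non-myelinating Schwann cells, −0.095 ± 0.146 (SE, adjusted p = 0.713).

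Sox10 encodes a transcription factor that Schwann cells, oligodendrocytes and melanocytes all need, and which acts on the genes of myelin in both sheaths. WT libraries had 176, 156, 176 and 194 CPM of Sox10. FUN025/+ libraries ran from 129 CPM through a median of 150.2 to 174 CPM, and FUN025/FUN025 libraries had 145, 129, 128, 153 and 149 CPM. All 5 FUN025/FUN025 libraries were below the lowest WT library, and the FUN025/+ libraries overlapped both groups. Sox10 fell by 0.32 ± 0.0894 on the log2 scale (SE, adjusted p = 0.0255) in FUN025/FUN025 eyecups relative to WT, to 0.801 of the WT level, while the log2 fold change of −0.22 ± 0.0858 (SE, adjusted p = 0.0928) in FUN025/+ eyecups missed the threshold. Between the mutant genotypes it was −0.095 ± 0.0815 (SE, adjusted p = 1).

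The call on Sox10 in FUN025/FUN025 eyecups was lost without WT replicate 3 (adjusted p = 0.0611), WT replicate 4 (0.107), FUN025/FUN025 replicate 2 (0.063) or FUN025/FUN025 replicate 3 (0.0589), and with the mean of a list of sarcomere genes as covariate (adjusted p = 0.0847), which left the log2 fold change at −0.325. All 16 sarcomere genes were lower in both mutant genotypes than in WT, with a summed level of 5705 to 10020 CPM in WT, 3156 to 7647 CPM in FUN025/+ and 4637 to 5740 CPM in FUN025/FUN025 libraries. Of the 16, 4 passed the threshold in each comparison with WT by edgeR's test, against 13.7% and 14.0% of all genes. With DESeq2 7 did in each, and the share over all genes with that tool is not given here. Des, Acta1 and Myh1 passed in both (log2 fold changes −0.68, −0.90 and −0.64 in FUN025/+ and −0.60, −0.83 and −0.75 in FUN025/FUN025 eyecups), Tnni2 in FUN025/+ (−0.90) and Myh2 in FUN025/FUN025 eyecups (−0.93), and their part in the fall of Sox10 was not tested further. Without the 3 libraries highest in Mobp, the log2 fold change of Sox10 was −0.365 (adjusted p = 0.0319).

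The same gene is expressed by melanocytes, which fill the choroid. Of 12 genes of melanocytes and pigment cells, 0 passed the threshold in FUN025/+ eyecups by edgeR's test, against 13.7% of all genes. In that comparison 2 had an unadjusted p under 0.05 (28.8% of all genes), and 1 passed with DESeq2 and 0 with limma. In FUN025/FUN025 eyecups 1 passed, against 14.0% of all genes. It was Gpr143, a pigment cell receptor that rose by 0.22 ± 0.0688 on the log2 scale (SE, adjusted p = 0.0444). Of the 12, 6 lay above 0 and 6 below in FUN025/FUN025 eyecups, with a median log2 fold change of 0.0012. There 3 had an unadjusted p under 0.05 (28.6% of all genes). These were Gpr143, Tyr, the enzyme that begins melanin synthesis, at 0.17 ± 0.0693 (SE, adjusted p = 0.123), and Mitf, the regulator of melanocytes, at 0.29 ± 0.122 (SE, adjusted p = 0.132). Mlana had 349 ± 21.1 CPM in WT (SD, n = 4), against 347 ± 21.4 CPM in FUN025/FUN025 eyecups (SD, n = 5), and the log2 fold changes of Mlana and Dct were −0.0066 ± 0.0675 and −0.026 ± 0.0731 (SE, adjusted p = 0.962 and 0.851). Within genotypes the deviations of Sox10 had r = 0.762 with the mean of the 12 pigment cell genes, 0.519 with Mlana, 0.0927 with Dct, 0.737 with Foxd3 and 0.375 with S100b over 15 libraries, against 0.39 with Prx and 0.261 with Pmp22. With the mean of the pigment cell list as covariate Sox10 passed in both genotypes, with log2 fold changes of −0.27 (adjusted p = 0.00699) in FUN025/+ and −0.35 (adjusted p = 0.0012) in FUN025/FUN025 eyecups.

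Mal encodes a proteolipid that sorts lipid rafts both in myelin and to the apical membrane of epithelial cells. WT libraries had 56.5, 75.5, 167 and 66.5 CPM of Mal. FUN025/+ libraries ran from 48.0 CPM through a median of 104.0 to 324 CPM in replicate 6, and FUN025/FUN025 libraries had 189, 105, 99.1, 128 and 165 CPM. Here WT replicate 3 and FUN025/+ replicate 1, with 211 CPM, were high although they were among the lowest in Mbp and Mobp. The log2 fold changes of 0.67 ± 0.504 (SE, adjusted p = 0.413) and 0.59 ± 0.520 (SE, adjusted p = 0.50) relative to WT did not pass the threshold, and the groups overlapped.

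The genes most like Mal across the 15 libraries, sought after its values were seen, were Calml3 (r = 0.996), Crybg2 (r = 0.987), Emp1 (r = 0.986), Gm13857 (r = 0.985) and Muc4 (r = 0.985). Calml3 and Krt5, the keratin of basal epithelial cells, are genes of stratified epithelium, and Muc4 encodes a mucin of the ocular surface. Calml3 had 28.5, 38.3, 141 and 38.3 CPM in WT libraries and 26.4 to 313 CPM in FUN025/+ libraries, and Krt5 had r = 0.98 with Mal. Mal had r = 0.359 with Mbp over the 15 libraries and −0.284 over the 12 without the 3 highest in Mobp, while with Calml3 it kept 0.996.

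The enzymes that make the galactolipids and sphingolipids of myelin were read as a separate list of 12, all tested. In FUN025/+ eyecups 1 passed the threshold and in FUN025/FUN025 eyecups 3 did, all higher than in WT, against 7.09% and 7.03% of all genes called as higher, with median log2 fold changes of 0.087 and 0.021. Asah1, the acid ceramidase, rose by 0.16 ± 0.0435 in FUN025/+ (SE, adjusted p = 0.0191) and by 0.19 ± 0.0451 in FUN025/FUN025 eyecups (SE, adjusted p = 0.0108) on the log2 scale. Sptlc2, a subunit of the enzyme that begins sphingolipid synthesis, rose by 0.17 ± 0.0440 (SE, adjusted p = 0.0165), and Galc, which breaks down galactosylceramide, by 0.16 ± 0.0518 (SE, adjusted p = 0.0416) in FUN025/FUN025 eyecups. These 3 genes work in many cell types. Ugt8a, which makes galactosylceramide, had 1.06 to 1.22 CPM in WT libraries, 3.55 CPM in FUN025/+ replicate 6 and 4.07 and 2.80 CPM in FUN025/FUN025 replicates 1 and 4, while the other mutant libraries had 0.882 to 1.64 CPM, and its log2 fold changes of 0.63 ± 0.413 and 0.85 ± 0.421 (SE, adjusted p = 0.333 and 0.192) did not pass.

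Among 10 genes of the junctions between axon and glia, 1 passed in each comparison, against 13.7%, 14.0% and 0.522% of all genes. Cntnap2, which encodes a juxtaparanodal protein of axons, fell by 0.42 ± 0.0831 on the log2 scale in FUN025/FUN025 eyecups relative to WT (SE, adjusted p = 0.00251) and by 0.41 ± 0.0766 relative to FUN025/+ (SE, adjusted p = 0.0138). Its WT libraries had 57.3 to 69.4 CPM and its FUN025/FUN025 libraries 40.9 to 52.1 CPM, without overlap. Cadm3, an adhesion protein of axons, fell by 0.72 ± 0.226 in FUN025/+ eyecups relative to WT (SE, adjusted p = 0.0488), with overlapping groups, and lost the call under most alternatives.

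Markers of other cell types that an eyecup can hold were read in the same way. Over all genes, 13.7%, 14.0% and 0.522% passed in the 3 comparisons by edgeR's test. An unadjusted p under 0.05 was held by 28.8%, 28.6% and 6.23%. The summed level of 12 rod photoreceptor genes was 360.2 to 2575 CPM in WT, 189 to 796 CPM in FUN025/+ and 187 to 522 CPM in FUN025/FUN025 libraries, and that of 11 neuron and axon genes 83.0 to 246 CPM, 59.7 to 95.3 CPM and 65.3 to 92.5 CPM. By edgeR's test 0 and 1 of the rod genes passed in FUN025/+ and FUN025/FUN025 eyecups against WT, with 11 and 11 at an unadjusted p under 0.05 and 4 and 3 passing with DESeq2. The gene that passed was Rom1, of the outer segment discs, which fell by 0.38 on the log2 scale (adjusted p = 0.0184), and 1 of 10 neuron genes, Uchl1, passed in each (log2 fold changes −0.47 and −0.46, adjusted p = 0.0304 and 0.0398). Gfap, the intermediate filament gene of astrocytes, which accompany optic nerve axons, had 51.2 to 176 CPM in WT, 17.9 to 116 CPM in FUN025/+ and 68.8 to 131 CPM in FUN025/FUN025 libraries, and did not pass (adjusted p = 0.267 and 0.658). Of the 9 genes of astrocytes and Mueller glia 0 passed in any comparison by edgeR's test, with 1 having an unadjusted p under 0.05 in each, and with DESeq2 1 passed in FUN025/FUN025 eyecups relative to WT. Of 10 fibroblast genes 0 passed in either comparison with WT by edgeR's test, DESeq2 or limma, and 0 and 4 had an unadjusted p under 0.05. Between the mutant genotypes Fbn1, the fibrillin of elastic fibres, fell by 0.31 on the log2 scale in FUN025/FUN025 eyecups (adjusted p = 0.0437). Of 10 macrophage genes, 0 passed in FUN025/+ eyecups by any of the 3 tools, with 0 at an unadjusted p under 0.05, and 1 in FUN025/FUN025 eyecups, Cd68, which rose by 0.32 (adjusted p = 0.0167). Their part in the values of the 8 myelin genes was not tested.

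The genes of lipid synthesis were set beside the myelin genes. Of 25 sterol synthesis genes, 10 rose in FUN025/+ and 18 in FUN025/FUN025 eyecups against WT and none fell, where 7.09% and 7.03% of all genes were called as higher, with median log2 fold changes of 0.26 and 0.50. Of 28 fatty acid synthesis genes tested, 5 rose in FUN025/+ eyecups, and 12 rose and 1, Elovl2, fell in FUN025/FUN025 eyecups, with medians of 0.042 and 0.12. The count of 5 was 2 without WT replicate 3 or WT replicate 4, and 3 without FUN025/+ replicate 3, with no low-count filter or with only those 2 genotypes in the fit. Scd2, a stearoyl-CoA desaturase abundant in brain and nerve, had 479 to 533 CPM in WT, 566 to 718 CPM in FUN025/+ and 1200.0 to 1313 CPM in FUN025/FUN025 libraries, a log2 fold change of 1.30 ± 0.0701 (SE, adjusted p = 2.4e-09) in FUN025/FUN025 eyecups. Insig1, the brake of the sterol pathway, had 65.1 to 90.0, 102 to 126 and 162 to 205 CPM in the same order, and Hmgcs1, which begins sterol synthesis, 91.5 to 118, 128 to 158 and 149 to 199 CPM.

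Other sterol genes with the lowest adjusted p were Idi1 (log2 fold change 0.66), Stard4 (0.48) and Hsd17b7 (0.44) in FUN025/+ eyecups, and Dhcr7 (0.61), Stard4 (0.73) and Lss (0.68) in FUN025/FUN025 eyecups. Among fatty acid genes these were Elovl6 (0.32), Elovl2 (0.38) and Acaca (0.16) in FUN025/+ eyecups, and Scd1 (1.84), Fads1 (0.73) and Srebf1 (0.74) in FUN025/FUN025 eyecups. Between the mutant genotypes, where 0.522% of all genes passed, 2 sterol genes rose, Insig1 (0.64) and Dhcr7 (0.32). There 9 fatty acid genes changed, 8 of them higher in FUN025/FUN025 eyecups, led by Scd1 (1.81), Scd2 (0.94), Fads1 (0.57) and Srebf1 (0.66), and 1 lower, Elovl2 (−0.76).

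Within a genotype, the lipid genes were compared with Mobp library by library. In FUN025/FUN025 eyecups, Scd2 was lowest, at 1200.0 CPM, in replicate 1, which had the most Mobp (54.7 CPM), and highest, at 1313 CPM, in replicate 5, which had the least (3.63 CPM). In FUN025/+ eyecups Scd2 was 718 CPM in replicate 6, the highest in Mobp, and 610.0 and 632 CPM in replicates 1 and 3, in which Mobp was under 1 CPM. It was lowest, at 565.5 CPM, in replicate 2, the second of that genotype in Mobp (20.1 CPM). All of these were above the highest WT library. For Insig1 and Hmgcs1, FUN025/+ replicate 6 was also the highest of its genotype, at 126 and 158 CPM. In FUN025/FUN025 eyecups their highest values, 205 and 199 CPM, were in replicate 4, the second in Mobp, while replicate 1, the first in Mobp, had their lowest, 162 and 149 CPM. The mean of the sterol list was likewise highest in FUN025/+ replicate 6 and FUN025/FUN025 replicate 4, at 5.32 and 5.53 log2 CPM. Over the 15 libraries, the deviations of Mobp from the genotype means had r = 0.296 with Scd2, 0.209 with Insig1 and 0.408 with Hmgcs1, and r = 0.363 with the mean of the sterol list and 0.238 with that of the fatty acid list. Over the 12 libraries without the 3 highest in Mobp the last 2 were −0.0747 and 0.165. Mbp had r = 0.486 and Mog 0.398 with the mean of the sterol list over the 15 libraries, and −0.139 and −0.297 over the 12. Pmp22 had r = −0.749 and Mal 0.583 with the mean of the sterol list over the 15 libraries, and −0.389 and 0.502 over the 12.

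**Figure D4:**
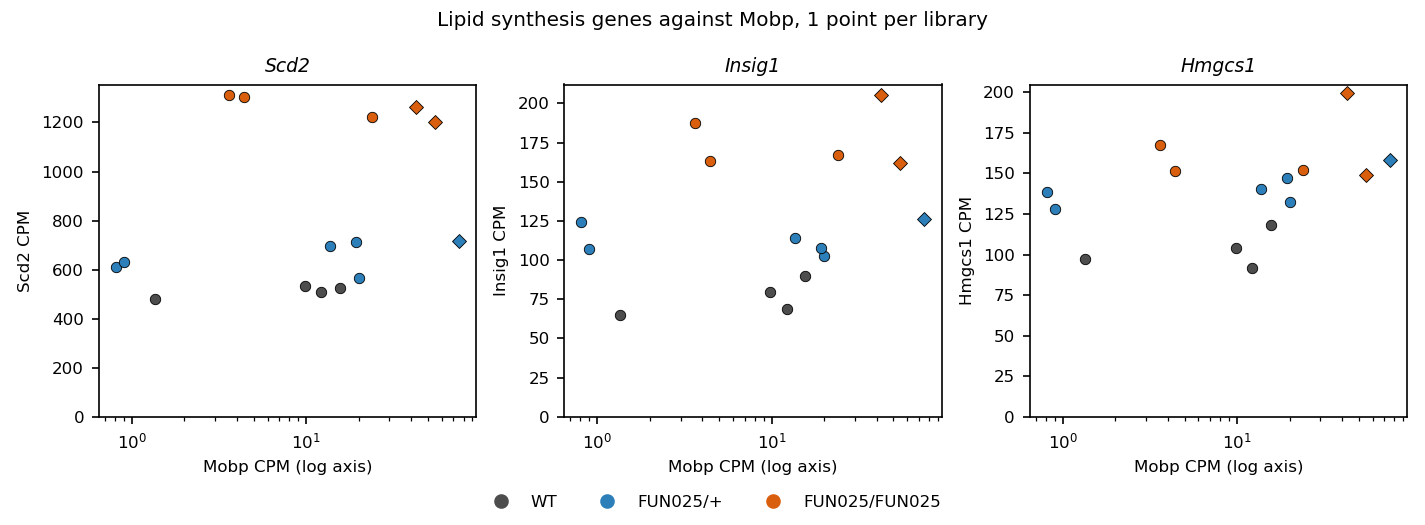
Levels of Scd2, Insig1 and Hmgcs1 against Mobp. Each point is 1 library, with Mobp CPM on a log axis, the lipid gene's CPM on a linear axis from 0, colour for genotype and diamonds for the 3 libraries highest in Mobp. FUN025/FUN025 libraries lie at 1200.0 to 1313 CPM of Scd2, with the least in the library that has most Mobp. FUN025/+ libraries lie at 566 to 718 CPM, with the most in the library that has most Mobp and the least in the library second in Mobp.

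Counts of lipid synthesis genes were then taken with the level of the 8 genes, the oligodendrocyte list or Mobp in the model. The mean of the 8 joins genes that ran apart, as Mal followed Calml3 (r = 0.996) and Pmp22 had r = −0.613 with Mbp. Mobp and the oligodendrocyte list stand for oligodendrocytes only, and no level of the peripheral list was used as a covariate. The content of peripheral nerve was thus not adjusted for on its own. With the mean of the 8 genes as covariate, 10 and 18 sterol genes passed in FUN025/+ and FUN025/FUN025 eyecups against WT, with medians of 0.24 and 0.46, and 5 and 12 fatty acid genes did. With Mobp as covariate 10 and 18 sterol genes passed (medians 0.25 and 0.47) and 4 and 12 fatty acid genes. With the mean log2 CPM of the oligodendrocyte list, the counts were 10 and 18, and 4 and 12. Without the 3 libraries highest in Mobp, 9 and 15 sterol genes passed (medians 0.23 and 0.42) and 4 and 10 fatty acid genes.

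**Figure D5:**
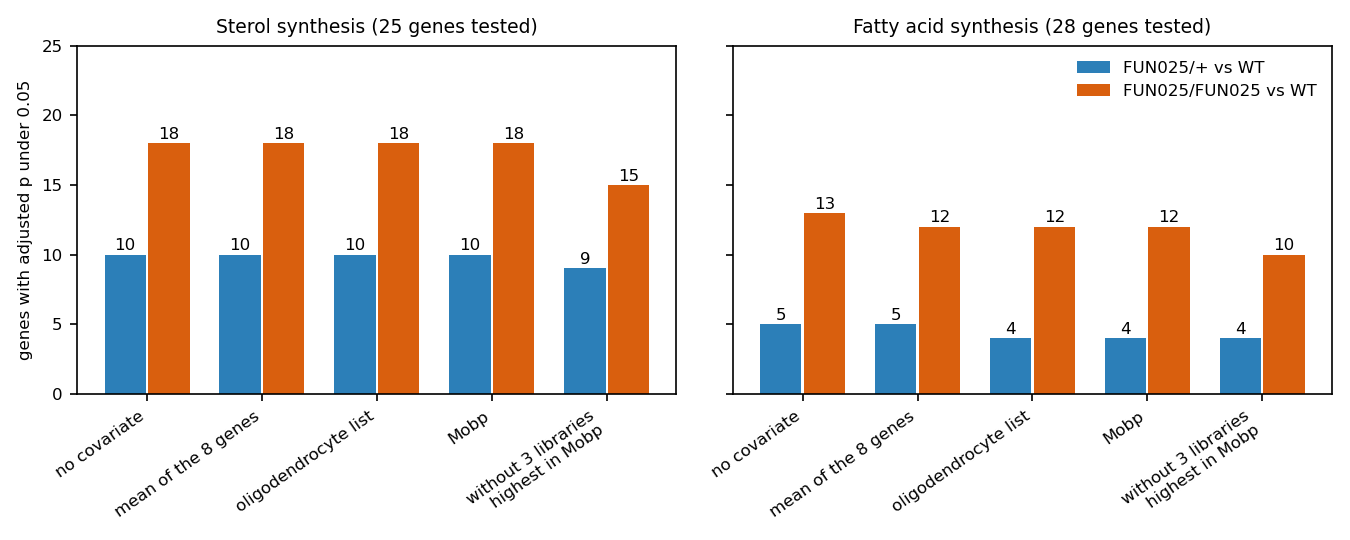
Number of lipid synthesis genes past the threshold with and without a myelin level in the model. Bars give the number of genes with an adjusted p under 0.05 in FUN025/+ (blue) and FUN025/FUN025 (orange) eyecups relative to WT, on an axis from 0, for the sterol list (25 genes tested) and the fatty acid list (28 genes tested). The sterol counts are 10 and 18 under every covariate and 9 and 15 without the 3 libraries highest in Mobp.

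The log2 fold change of Scd2 in FUN025/FUN025 eyecups was 1.30 with no covariate and 1.30, 1.30 and 1.29 with the mean of the 8 genes, the oligodendrocyte list and Mobp, and 1.33 without the 3 libraries. For Insig1 the same values were 1.22, 1.20, 1.21, 1.20 and 1.20, and for Hmgcs1 0.67, 0.64, 0.66, 0.64 and 0.62. Fasn, the fatty acid synthase gene, had 0.42, 0.40, 0.41, 0.41 and 0.42. All of these had an adjusted p of 1.52e-04 or less.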

How the data were processed

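The authors deposited a table of raw read counts per Ensembl gene for each library, made from oligo(dT)-selected NEBNext libraries. The submitters' processing notes name FastQC 0.11.8, Trimmomatic 0.39, HISAT2 2.1.0, SAMtools, featureCounts 2.0.0 and GRCm38, and the strand setting is not given in the sources used here. Libraries were grouped by their titles. Symbols, positions and exon lengths came from GENCODE M21 (55240 of 55421 genes matched), and promoters from RefSeq.

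The least variable 15% of genes were dropped, as the study did, leaving 47108, and edgeR's filterByExpr left 18979. Counts were scaled by TMM (factors 0.976 to 1.02), and a single quasi-likelihood fit held all 15 mice (edgeR 4.0.16, R 4.3.3) with Benjamini-Hochberg adjustment over all genes tested. Intervals cover 95%. The fits were tested on simulated data. DESeq2 1.42.0, limma 3.58.1, other scalings and filters, covariates, the replicate number as a block and leaving out each mouse were alternatives. CPM uses the TMM-scaled totals, and correlations use log2 CPM with a prior count of 2.

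The 8 genes and the 13 gene lists were chosen with earlier results of these data known. Named genes are the 8, those past the threshold in a list (at most 4 per list and comparison), a set of defining markers, and the 5 genes most like Prx and Mog; 1 gene that the rule gives is not reported here. The 5 genes most like Mal, and other genes outside this rule, were chosen after their values were seen. Replicates are different mice, and no 2 libraries held identical counts.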

Additional observations from a re-analysis of the deposited data

Results flagged for a closer look

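Within the 6 FUN025/+ libraries, replicate 6 lay far from the others for 3 of the 8 genes, by a gap to the nearest library that was over 0.625 of the whole range of the group. Mbp had 325 CPM there (gap 0.702 of the range), Mag 20.4 CPM (gap 0.787) and Mog 4.29 CPM (gap 0.712). Among 24 groups examined, 8 genes in 3 genotypes, 3 were of this kind, where chance gives about 1 in 20 for a single group of normally distributed values. The gaps were taken on linear CPM. On a log2 scale they are a smaller share of the range, and the rule was not applied there. All 3 flagged values come from the same library, in genes whose levels rose and fell together across libraries (r = 0.886 to 0.943), so that they count as 1 observation. The same library had 75.3 CPM of Mobp, the most of all 15, and the least Pmp22, 195 CPM. Without FUN025/+ replicate 6 the log2 fold changes in FUN025/+ eyecups relative to WT were 0.16 for Mbp, −0.18 for Mag and 0.014 for Mog. Lower values follow from leaving out the highest library.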

How the results depend on the processing

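Low counts limit Mog, with 3 to 59 per library, and Olig2 and Opalin, which were untested. Mag and Mog had wide intervals, and their spread within genotypes was larger than that of 99.3% and 99.6% of genes. The count of the 8 genes past the threshold in FUN025/FUN025 eyecups relative to WT, 1, was 2 with library size alone, with DESeq2 and with only the 2 genotypes compared, 0 with the sarcomere covariate, and 0 to 2 with a mouse left out, 2 without FUN025/+ replicate 5 or 6. In FUN025/+ eyecups it was 0, and 1 with the oligodendrocyte covariate (Mbp) and with the pigment cell covariate (Sox10), and 0 to 1 with a mouse left out, 1 without FUN025/+ replicate 3 or 5. Over all genes, where 2600, 2666 and 99 were called in the 3 comparisons, the calls were 1285 in FUN025/+ eyecups with the sarcomere covariate and 1433 to 2719 with a mouse left out, lowest without WT replicate 4; in FUN025/FUN025 eyecups 1669 without the 3 libraries highest in Mobp and 1519 to 2697 with a mouse left out, lowest without WT replicate 4; and between the mutant genotypes 171 with DESeq2 and 55 without the 3 libraries. Fatty acid genes called in FUN025/+ eyecups were 3 with no low-count filter or only the 2 genotypes compared and 2 to 5 with a mouse left out, lowest without WT replicate 3 or 4, and sterol genes called between the mutant genotypes were 1 without the 3 libraries. The median log2 fold change of the 8 genes relative to WT was 0.12 and 0.17 in the 2 mutant genotypes with limma, 0.097 and −0.037 with the oligodendrocyte covariate, 0.12 and −0.097 with Mobp as covariate, 0.049 in FUN025/+ eyecups with the block, −0.041 there without FUN025/+ replicate 6, and 0.079 in FUN025/FUN025 eyecups without FUN025/FUN025 replicate 1. Without Mog, which was not tested there, it was −0.00024 and −0.0097 with 10 counts in every library and 0.0075 in FUN025/+ eyecups with only the 2 genotypes compared. The causes were not tested. All other counts of sterol and fatty acid genes in the comparisons with WT stayed within 1.5 times of those given.

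Log2 fold changes that changed sign were all small or uncertain, and none had passed the threshold. Prx in FUN025/+ eyecups relative to WT was −0.0041 with library size alone, −0.0059 with no low-count filter, −0.00024 with 10 counts in every library, −0.0301 and −0.011 with the sarcomere and pigment cell covariates, and −0.0754 to 0.0619 with a mouse left out. In FUN025/FUN025 relative to FUN025/+ eyecups, Mbp was 0.0485 with limma, 0.331 with the replicate block, 0.0071 and 0.149 with the sarcomere and pigment cell covariates, and −0.262 to 0.417 with a mouse left out; Mag 0.134, 0.604, 0.211 with limma, the block and the pigment cell covariate, and −0.606 to 0.84; Mal 0.157, 0.355 and 0.0757 in that order, 0.168 without the 3 libraries, and −0.259 to 0.323; Cnp −0.0165 with Mobp as covariate, −0.017 without the 3 libraries, and −0.0163 to 0.084; and Pmp22 −0.0618 to 0.0097. Relative to WT, Cnp was 0.0377 and 0.0547 with the sarcomere covariate in the 2 mutant genotypes, and in FUN025/FUN025 eyecups 0.0019 with the pigment cell covariate and −0.0508 to 0.023 with a mouse left out. Mag in FUN025/FUN025 eyecups was −0.022 with the oligodendrocyte covariate, −0.187 with Mobp and −0.632 without the 3 libraries, and in FUN025/+ eyecups −0.169 without them and −0.176 to 1.02 with a mouse left out. Mbp in FUN025/FUN025 eyecups was −0.0187 without them. In FUN025/+ eyecups Fasn was −0.00798 with the block, −0.0033 without the 3 libraries and −0.0098 to 0.0553 with a mouse left out, and Scd1 −0.037 to 0.112.

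Replicate numbers do not name the same animal across genotypes, and the mean correlation of the deviations of same-numbered mice was −0.248, −0.0672 and 0.0549 in the 3 comparisons, so the numbers were not taken as pairs. With the replicate block, Sox10 in FUN025/FUN025 eyecups relative to WT was −0.325 (adjusted p = 0.066) and Pmp22 −0.197 (adjusted p = 0.0335). The 8 genes were not tested with their own mean as covariate, and with 10 counts in every library Mog was not tested. Among the counts of the other gene lists under all alternatives, 821 of 978 stayed within 1.5 times of the main count.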
